A study of Mus musculus with 6 samples.

Results

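The subject is the mRNA of 10 genes that make and use microRNAs: the Argonaute genes Ago1, Ago2, Ago3 and Ago4, the nucleases Dicer1 and Drosha, the Drosha cofactor Dgcr8, the export receptor Xpo5, and the silencing adaptors Tnrc6a and Tnrc6b. They were chosen by name, matched through Ensembl gene identifiers to GENCODE M21, and all 10 were found among the 22579 genes of the deposited count table. RNA was counted in 3 libraries from Ddx20 knockout mice, which the labels also shorten to cKO, and in 3 from control littermates. Each library was made by SMART-seq2, a method that amplifies whole cDNA, from about 1000 THY1-positive spermatogonia at day 4. Sorting for THY1, a protein of the cell surface, enriches the undifferentiated spermatogonia, among which are the stem cells of the testis. The labels do not say which promoter or cell type drove the deletion, nor whether animals were pooled.

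A microRNA begins as a hairpin in a longer transcript. In the nucleus the Microprocessor, made of the nuclease DROSHA and its RNA-binding partner DGCR8, cuts the hairpin out, and exportin 5 (Xpo5) carries it to the cytoplasm. There DICER1 trims it to a short duplex, and an Argonaute protein keeps a single strand as its guide. TNRC6 proteins, also called GW182, bind the Argonaute and recruit deadenylases and translational repressors to the target mRNA. DDX20, or Gemin3, is a DEAD-box RNA helicase of the SMN complex, and human particles that hold Gemin3, Gemin4 and AGO2 were found to carry microRNAs. In mouse germ cells, loss of Dicer1 is known to impair spermatogenesis.

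Ddx20 itself had 128, 168 and 119 reads in the knockouts and 668, 383 and 531 in the controls. Its log2 fold change was −1.89 ± 0.26 (SE), with an edgeR adjusted p of 0.0118. The adjusted p was 0.0554 without knockout 1, 0.0620 without knockout 3 and 0.0541 with knockout 1 and 2 as 1 library, where DESeq2 (1.1e-05) and limma-voom (0.00105) kept the call. The libraries held 8428871 to 12497967 reads each. Knockout 1 and knockout 2 were far more alike than any other pair, with a mean chi-square per gene of 1.78 where sampling noise gives about 1 and the remaining 14 pairs had 11.96 to 104. The labels list them as separate samples and both were kept. Because PCR-amplified reads are not independent, the value does not show that they came from separate samples. A p that treats them as independent may be too small, so for the calls described here the outcome with the pair as 1 library is also stated. Mitochondrially encoded transcripts took 19.8% to 20.1% of reads in knockouts and 14.0% to 16.9% in controls. Summed germ cell markers (Ddx4, Dazl, Zbtb16, Gfra1, Id4, Thy1, Kit and Sall4) reached 3718 to 4112 CPM in knockouts and 3321 to 4020 CPM in controls, where CPM is the usual depth-scaled read count, here with TMM scaling. Most of that sum was Dazl, at 3003 to 3323 CPM in knockouts and 2501 to 3228 CPM in controls. In that list Kit and Gfra1 fell, by 1.02 and 0.69 on the log2 scale, and 0 of 8 rose. For this and the other marker lists, the share of all genes tested that edgeR called was 2.8% lower and 2.03% higher. At an unadjusted edgeR p under 0.05, 5 of the 8 were lower and 0 higher, against 12.8% and 11.3% of all genes tested. Without overlap, 5 lay lower and 1, Ddx4, lay higher, against 15.8% and 16.8% of all genes tested. Zbtb16, a transcription factor of undifferentiated spermatogonia, had the largest estimate (−1.08, edgeR adjusted p 0.0655). Markers of smooth muscle and myoid cells summed to 163 to 233 CPM in knockouts and 64.5 to 80.7 CPM in controls, and those of T lymphocytes to 41.2 to 59.5 CPM and 21.7 to 26.8 CPM. Each list has 6 genes; Acta2 and Actg2 rose in the first (5 tested), Cd3g and Lck in the second (6 tested), and none fell. Sertoli cell markers summed to 29.9 to 48.8 CPM in knockouts and 29.9 to 34.5 CPM in controls, with Cldn11 higher among 5 tested of 8 and Amh under 10 reads in all libraries together. No marker was called for Leydig cells, endothelial cells or macrophages. Their sums were 45.2 to 62.4, 42.1 to 53.6 and 406 to 511 CPM in knockouts. In controls they were 23.2 to 60.8, 30.8 to 39.1 and 331 to 468 CPM. In each of these 3 lists 1 gene had an unadjusted edgeR p under 0.05, higher in the knockouts and without overlap. These were Cyp17a1 (1.55), Emcn (1.69) and C1qa (0.68) on the log2 scale. Estimates were negative for 2 of 6, 1 of 5 and 2 of 5 genes of these lists. With the pair as 1 library edgeR kept none of the 7 marker calls (adjusted p 0.0541 to 0.223), and of these Kit and Acta2 kept theirs by both DESeq2 and limma-voom. The part of these differences in the results below was not tested.

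Drosha fell in the knockouts and was the only member to pass the test. The other 9 members also had negative log2 fold changes, from −1.03 for Ago1 to −0.06 for Dgcr8, but none of them was called. The median over the 10 members was −0.50, against 0.01 over all 14766 genes tested. Of all genes tested, 4.83% were called by edgeR at an adjusted p under 0.05, 2.8% lower and 2.03% higher, so 1 call among 10 genes is little more than that background. In 5 members every knockout library lay below every control library, where 15.8% of all genes tested did so and 32.6% had no overlap in either direction. A negative value was found in 10 of 10 members and in 49.7% of all genes. With scaling by library size the medians were −0.765 for the members and −0.258 for all genes. With the trend with exon length and GC content removed they were −0.453 and −0.153, and Ago2 turned to 0.008. EdgeR called 0 members when knockout 1 and 2 were merged into 1 library, where it called 1 of all 15406 genes tested. In that setting 4 members had an unadjusted edgeR p under 0.05, against 2150 of all genes tested. DESeq2 and limma-voom each called Drosha there, among 469 and 505 of all genes tested. In bulk RNA of sorted cells, fewer cells of a type and less RNA per cell cannot be told apart.

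**Figure D1:**
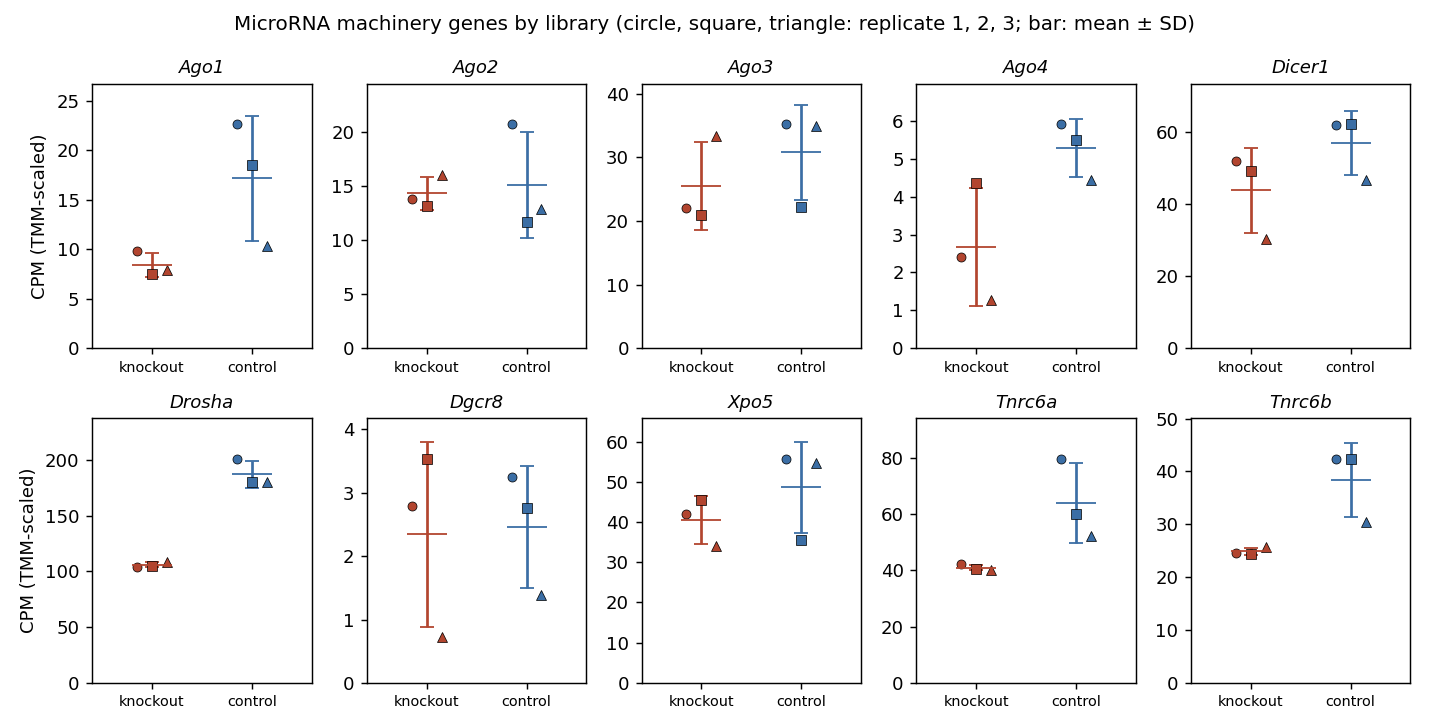
TMM-scaled CPM of the 10 members in each library, knockout at left and control at right in every panel, with the mean and SD (n = 3 per group) and an axis from 0. Drosha lies at 104 to 108 CPM in knockouts and 180 to 201 CPM in controls, while the groups of Ago2, Ago3, Dicer1, Dgcr8 and Xpo5 overlap.

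The nuclear steps were carried by very unequal amounts of mRNA. Drosha, the nuclease that makes the first cut, is encoded on the plus strand of chromosome 15, positions 12824815 to 12935291 in mm10, the build of all coordinates here (ENSMUSG00000022191). It had 1120, 1155 and 1204 reads in the knockouts and 2104, 1898 and 2350 in the controls, or 104, 105 and 108 CPM against 201, 180 and 180 CPM. The groups stood well apart, and the 3 knockouts were nearly equal. The means were 106 ± 2.30 CPM in knockouts and 187 ± 12.03 CPM in controls (SD, n = 3 each). The log2 fold change was −0.82 ± 0.14 (SE), with a 95% interval of −1.13 to −0.51, an unadjusted p of 0.00012 and an edgeR adjusted p of 0.0180. Its size changed little when any library was left out (−0.85 to −0.77). Without knockout 1, 2 or 3, or with knockout 1 and 2 as 1 library, edgeR called 5, 10, 3 and 1 of all genes. Drosha was not among them, with adjusted p of 0.130, 0.134, 0.0713 and 0.136 by edgeR. DESeq2 and limma-voom kept the call in the last of these settings, at adjusted p of 0.00604 and 0.0164.

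Because Drosha is the member that passed, its promoter is shown from the RefSeq table on GRCm38.p6 (chr15:12824565-12824864, plus strand), running from 250 bases before the annotated start to 50 bases after it.
Drosha promoter: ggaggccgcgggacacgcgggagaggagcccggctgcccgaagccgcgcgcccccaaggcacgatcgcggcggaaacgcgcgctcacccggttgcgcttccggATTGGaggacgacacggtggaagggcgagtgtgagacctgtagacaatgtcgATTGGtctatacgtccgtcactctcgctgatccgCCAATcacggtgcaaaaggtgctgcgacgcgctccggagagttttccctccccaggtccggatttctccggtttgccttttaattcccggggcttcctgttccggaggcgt
Capitals mark the letters CCAAT, the NF-Y motif, on either strand (ATTGG on the other strand). They begin 147, 95 and 61 bases before the start. Of 32851 promoter windows of this length in the table, 37.4% hold CCAAT. The window held no GGGCGG (SP1, in 35.7% of windows) and no TTTNNCGC (E2F, in 5.17%), each searched on both strands. For 9 of the 10 members RefSeq windows were matched, 11 in all, and CCAAT occurred in at least 1 window of Ago1, Dicer1, Drosha, Dgcr8 and Tnrc6b. GC content was 64.3% in the Drosha window, with 37 CpG, where the median window has 52.7% and 7. These matches describe the letters alone.

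Dgcr8, which holds the primary transcript for DROSHA, lies on chromosome 16 at 18253948 to 18289246 on the minus strand (ENSMUSG00000022718) and was the least abundant member by reads. It had 30, 39 and 8 reads in the knockouts and 34, 29 and 18 in the controls. Knockout 3 was the lowest of the 6 libraries, and the groups overlapped. The means were 2.35 ± 1.46 CPM in knockouts and 2.46 ± 0.97 CPM in controls (SD, n = 3 each). The log2 fold change was −0.06, with a 95% interval of −1.60 to 1.47 and an edgeR adjusted p of 0.971, so neither a fall like that of Drosha nor a rise can be told from these reads. The sign turned to 0.36 without knockout 3. Exons of Trmt2a on the other strand share 825 bases with those of Dgcr8, and the strand setting of the counting is not given in the sources used here. Per kilobase of annotated exon, Drosha stood 38.4 to 195 times above Dgcr8 in the knockouts and 80.2 to 169 times in the controls.

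The Dgcr8 transcript is itself known to be cut by the Microprocessor at a hairpin in its own exon, which is annotated as Mir1306. Both mature strands are shown for this reason, from the RefSeq table on GRCm38.p6, 5′ to 3′ with the seed (bases 2 to 8) in capitals; they lie at chr16:18284248-18284268 and chr16:18284288-18284310 on the minus strand.
mmu-miR-1306-3p: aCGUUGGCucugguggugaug
mmu-miR-1306-5p: cACCACCUccccugcaaacgucc
Mature microRNAs were not measured here, since the reverse transcription was primed on poly(A) tails, and 0 rows of the count table are annotated as microRNA genes.

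Xpo5, the export receptor for precursor hairpins (chromosome 17, 46202782 to 46243598, plus strand), had 451, 502 and 378 reads in the knockouts and 584, 375 and 714 in the controls. Control 2 lay among the knockouts. Its means were 40.5 ± 5.89 CPM in knockouts and 48.7 ± 11.4 CPM in controls (SD, n = 3 each), a log2 fold change of −0.27 with a 95% interval of −0.74 to 0.20.

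The cytoplasmic nuclease gene Dicer1 (chromosome 12, 104687742 to 104751952, minus strand) had 560, 543 and 336 reads in the knockouts and 650, 656 and 609 in the controls. After scaling these were 52.1, 49.3 and 30.3 CPM in knockouts and 62.1, 62.3 and 46.7 CPM in controls. Knockout 3 stood lowest, and control 3 lay below knockout 1 and knockout 2. The log2 fold change was −0.38 ± 0.22 (SE), with a 95% interval of −0.87 to 0.12 and an edgeR adjusted p of 0.339.

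**Figure D2:**
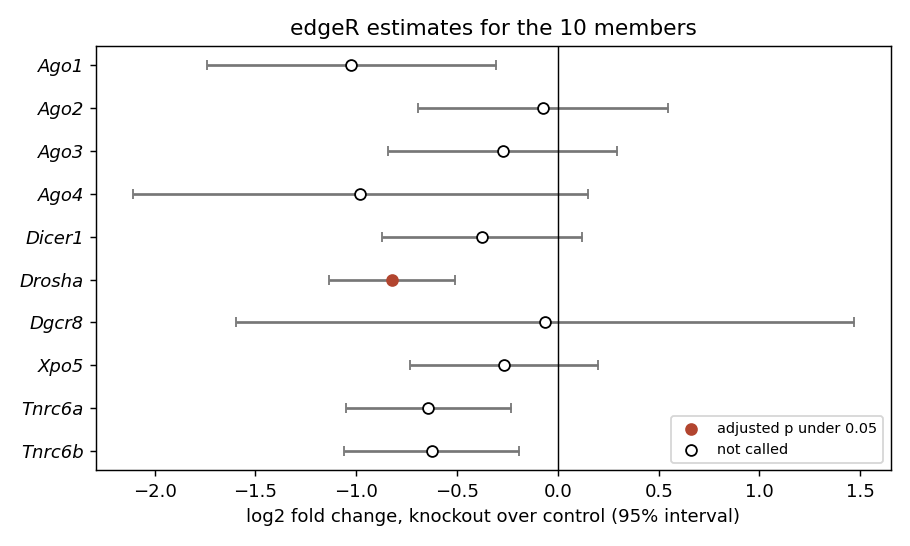
Log2 fold change of each member, knockout over control, with its 95% interval from the edgeR fit; the filled point is the call at an adjusted p under 0.05. The intervals of Drosha, Ago1, Tnrc6a and Tnrc6b lie below 0, and that of Dgcr8 spans −1.60 to 1.47.

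Among the 4 Argonaute genes none was called, and Ago1 had the largest estimate. Ago3, Ago1 and Ago4 lie in a row on the minus strand of chromosome 4 within 201.8 kb, with gaps of 5.46 kb and 20.96 kb, and Ago2 lies alone on chromosome 15. Ago1 (126435012 to 126468583) had 105, 83 and 88 reads in the knockouts and 237, 195 and 134 in the controls. That is 9.76, 7.53 and 7.92 CPM against 22.6, 18.5 and 10.3 CPM, so the groups did not overlap but control 3 came close to the knockouts. The log2 fold change was −1.03 ± 0.32 (SE), with a 95% interval of −1.74 to −0.31, an unadjusted p of 0.00943 and an edgeR adjusted p of 0.0914. It was called without control 3 (edgeR adjusted p 0.0347, log2 fold change −1.29), while without control 1 the log2 fold change was −0.78 and the adjusted p 0.174.

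Ago2 encodes the Argonaute that can itself cut a target RNA, and it is the Argonaute found with human Gemin3. Its gene lies on chromosome 15 at 73095844 to 73184935 on the minus strand (ENSMUSG00000036698). It had 148, 145 and 178 reads in the knockouts and 217, 123 and 168 in the controls. The 3 knockouts, at 13.8, 13.2 and 16.0 CPM, lay between the lowest and the highest control (20.7, 11.7 and 12.9 CPM). Means were 14.3 ± 1.51 CPM in knockouts and 15.1 ± 4.92 CPM in controls (SD, n = 3 each). The log2 fold change was −0.08, with a 95% interval of −0.70 to 0.54 and an edgeR adjusted p of 0.904, and it turned to 0.22 without control 1. A change as large as that of Drosha (−0.82) lies outside this interval, which treats knockout 1 and 2 as independent. The log2 fold change of Ago2 was −0.03 ± 0.36 (SE) with that pair as 1 library and −0.38 ± 0.33 with library size scaling. A fall of that size is therefore not excluded in every setting, and a direct test between the genes was not made. Its exons share 219 bases with those of Chrac1 on the other strand.

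Ago3 (126331704 to 126429556) had 237, 231 and 371 reads in the knockouts and 369, 234 and 455 in the controls, with a log2 fold change of −0.27 and a 95% interval of −0.84 to 0.29. Knockout 3 and control 2 crossed into the range of the other group. Ago4 (126489541 to 126533472) was scarce, with 26, 48 and 14 reads in the knockouts and 62, 58 and 58 in the controls. Its groups did not overlap, at 2.42, 4.35 and 1.26 CPM in knockouts and 5.92, 5.51 and 4.45 CPM in controls. Its log2 fold change of −0.98 had a 95% interval of −2.11 to 0.15 and an edgeR adjusted p of 0.274.

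The make-up of the Argonaute transcripts was compared per kilobase. Per kilobase of exon, the 4 genes together stood at 3.86, 3.76 and 4.31 CPM in the knockouts and 7.25, 5.24 and 4.93 CPM in the controls. Ago2 made up 25.4%, 25.0% and 26.5% of that level in the knockouts and 20.4%, 15.9% and 18.6% in the controls, without overlap. Ago1 made up 31.1%, 24.7% and 22.6% in the knockouts and 38.5%, 43.5% and 25.7% in the controls, where control 3 lay inside the knockout range. Ago3 held 34.4%, 33.7% and 46.7% in the knockouts and 29.4%, 25.6% and 42.7% in the controls. These shares were not tested, and they rest on exon lengths that join all annotated transcripts of a gene.

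**Figure D3:**
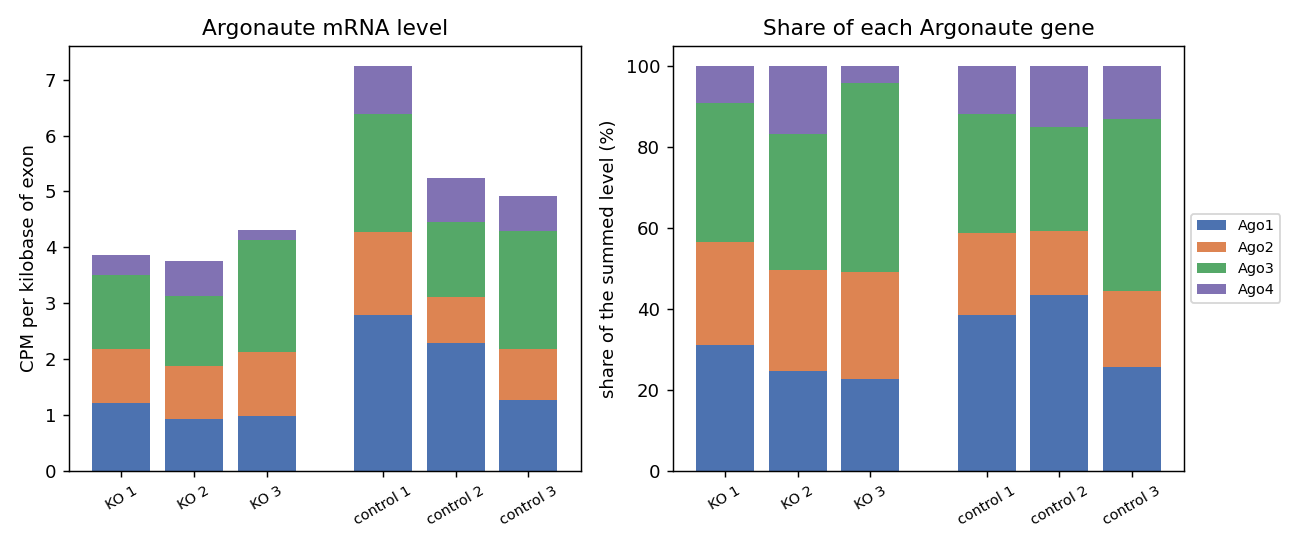
Left, level of the 4 Argonaute genes in each library in CPM per kilobase of annotated exon, stacked, with an axis from 0; right, the share of each gene in that sum, in percent. Knockouts (KO) are at left in each panel; the summed level was 3.76 to 4.31 in knockouts and 4.93 to 7.25 in controls, and the Ago2 share was higher in all 3 knockouts.

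The silencing adaptors had similar estimates. Tnrc6a (chromosome 7, 123123885 to 123195296, plus strand) had 454, 447 and 448 reads in the knockouts and 835, 634 and 681 in the controls, or 42.2, 40.6 and 40.3 CPM against 79.8, 60.2 and 52.2 CPM. The knockouts were nearly equal and all lay below the controls. Its log2 fold change was −0.64 ± 0.19 (SE), with a 95% interval of −1.05 to −0.23 and an edgeR adjusted p of 0.0726. Tnrc6b (chromosome 15, 80711313 to 80941085, plus strand) had 264, 269 and 285 reads in the knockouts and 444, 446 and 396 in the controls. Its CPM were 24.5, 24.4 and 25.7 in knockouts and 42.4, 42.3 and 30.4 in controls, again without overlap. The log2 fold change was −0.62 ± 0.20 (SE), with a 95% interval of −1.06 to −0.19 and an edgeR adjusted p of 0.0906. Without control 3, the lowest control for both, each was called (edgeR adjusted p 0.0440 for Tnrc6a and 0.0419 for Tnrc6b). The third family member, Tnrc6c, belongs to the list of effectors given below and did fall.

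The order of the members by level was much the same in both groups. In the knockouts the mean level per kilobase of exon was 17.8 CPM for Drosha, 5.90 for Xpo5, 3.23 for Tnrc6a, 2.62 for Dicer1, 1.54 for Ago3, 1.05 for Tnrc6b, 1.03 for Ago1, 1.02 for Ago2, 0.385 for Ago4 and 0.305 for Dgcr8. In the controls it was 31.5 CPM for Drosha, 7.10 for Xpo5, 5.04 for Tnrc6a, 3.40 for Dicer1, 2.11 for Ago1, 1.86 for Ago3, 1.62 for Tnrc6b, 1.08 for Ago2, 0.762 for Ago4 and 0.320 for Dgcr8. In the knockouts, neighbours whose libraries overlapped were Dicer1 with Ago3, Tnrc6b with Ago1 and Ago2, and Ago4 with Dgcr8. In the controls, each neighbouring pair from Xpo5 to Ago4 overlapped except Tnrc6a and Dicer1. Drosha stood apart from the next member, Xpo5, by a factor of 2.66 to 3.68 in knockouts and 3.80 to 5.85 in controls.

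Across the 6 libraries, Pearson's r between log2 CPM of 2 members ranged from −0.59 (Ago3 and Dgcr8) to 0.96 (Ago1 and Tnrc6b). It was over 0.9 in 5 of 45 pairs, all among Ago1, Drosha, Tnrc6a and Tnrc6b. These points share the difference between the groups and 2 near-identical libraries, so the values are a description. Of 7704 named genes with a mean of at least 10 CPM, those most like Drosha over the 6 libraries included Gspt1 (r = 0.999) and Scml2 (r = 0.997).

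Genes that work around the members were taken as lists. Of 26 tested genes for microRNA processing, loading and turnover, 2 fell, 0 rose and 24 did not pass, where 2.8% of all genes tested were called lower. The median log2 fold change was −0.08. Trim71, the mammalian homologue of the nematode let-7 target lin-41, had 50.01, 45.9 and 54.8 CPM in the knockouts and 125, 117 and 91.2 CPM in the controls. The highest knockout was well below the lowest control, with a log2 fold change of −1.14 ± 0.17 (SE) and an edgeR adjusted p of 0.0119. Hnrnpa1, an RNA-binding protein known in human cells to help the processing of miR-18a, fell to 199 ± 15.1 CPM in knockouts, against 315 ± 15.5 CPM in controls (SD, n = 3 each; edgeR adjusted p 0.0364). Hnrnpa1 has processed pseudogenes that can share its reads. Both calls were lost in edgeR without knockout 1, 2 or 3, where it called 5, 10 and 3 of all genes tested. Both were also lost with knockout 1 and 2 as 1 library (edgeR adjusted p 0.0828 for Trim71 and 0.233 for Hnrnpa1). There 3 of the 26 had an unadjusted edgeR p under 0.05, against 2150 of all 15406 genes tested. In that last setting Trim71 was called by DESeq2 (0.000991) and limma-voom (0.00283), and Hnrnpa1 by DESeq2 (0.0295) but not by limma-voom (0.0505). Hnrnpa1 was also lost without control 2 (0.0640) or control 3 (0.0597).

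Among the partners that did not pass, Prkra, a double-stranded RNA-binding partner of DICER1, had the largest positive estimate. It stood at 29.6, 23.6 and 29.4 CPM in knockouts and 11.3, 9.02 and 18.9 CPM in controls, a log2 fold change of 1.07 with an edgeR adjusted p of 0.0598. The next by p were Khsrp (−0.87), Srrt (−0.52) and Ddx5 (0.50), with adjusted p of 0.126, 0.142 and 0.143 by edgeR. Gemin4, the partner of DDX20 in the human particle, had 65, 71 and 61 reads in the knockouts and 99, 85 and 66 in the controls. Its log2 fold change was −0.33 with a 95% interval of −1.11 to 0.46, and its exons share 3353 bases with Glod4 on the same strand.

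Genes that carry out silencing after TNRC6 were the next list. Of 30 tested, 6 fell, 0 rose and 24 did not pass, and 13 had libraries lower in the knockouts without overlap. Of all genes tested, 2.8% were called lower and 15.8% lay lower without overlap. The median log2 fold change was −0.36, with 27 of 30 values negative. Pan3, the subunit that ties the PAN2 deadenylase to TNRC6, fell to 25.7, 30.3 and 27.3 CPM in the knockouts, against 46.4, 57.0 and 52.8 CPM in the controls (log2 fold change −0.91 ± 0.17, edgeR adjusted p 0.0233). Tnrc6c fell to 27.1, 25.3 and 20.3 CPM in knockouts, against 52.4, 49.5 and 40.9 CPM in controls (−0.97 ± 0.19, edgeR adjusted p 0.0256). Each knockout of both genes lay below each control.

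Cnot11, a subunit of the CCR4-NOT deadenylase complex, fell by 0.99 on the log2 scale. Cnot6l, a catalytic subunit of the same complex, fell by 0.70, and 9 of the 10 Cnot genes had negative values. Mov10, an RNA helicase found with Argonautes, fell by 0.96 and Lsm14a, a P-body protein gene, by 0.79. Their edgeR adjusted p ran from 0.0244 for Cnot11 to 0.0430 for Cnot6l. The other 4 named by p were Cnot6 (−0.51), Eif4enif1 (−0.50), Pan2 (−0.56) and Gigyf2 (−0.52), with edgeR adjusted p of 0.0801 to 0.143. With the knockout pair as 1 library edgeR called 0 of the 30, and DESeq2 and limma-voom called 3 each. Of all 15406 genes tested there, edgeR called 1, DESeq2 469 and limma-voom 505. By edgeR 7 of the 30 had an unadjusted p under 0.05 there, against 2150 of all 15406 genes tested. Without control 2 edgeR called 0 (10 at an unadjusted p under 0.05, against 3748 of all 15558 genes tested). It also called 0 of the 30 without knockout 1, 2 or 3, where it called 5, 10 and 3 of all genes tested. These libraries are also those with the lower Kit and Gfra1 and the higher smooth muscle and T lymphocyte markers given above, whose part was not tested.

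**Figure D4:**
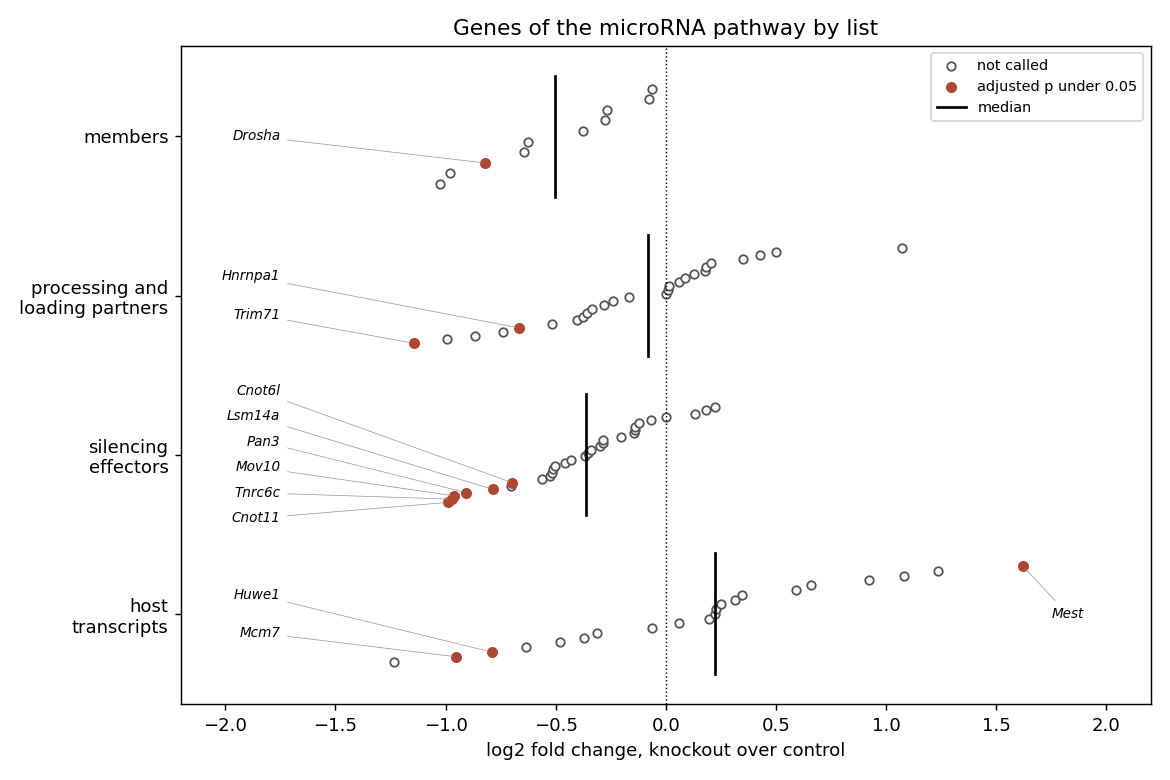
Log2 fold change, knockout over control, of every tested gene of the 4 lists, 1 point per gene spread vertically by rank; filled and named points passed at an edgeR adjusted p under 0.05 and the black bar is the list's median. Medians were −0.50 for the members, −0.08 for processing and loading partners, −0.36 for silencing effectors and 0.22 for host transcripts.

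The PIWI clade of Argonautes, which binds piRNAs in germ cells, was not called either. Piwil2 stood at 103, 99.7 and 95.9 CPM in the knockouts and 132, 131 and 137 CPM in the controls, a log2 fold change of −0.42 with an edgeR adjusted p of 0.0971. Piwil1 and Piwil4 had log2 fold changes of −0.85 and −0.14, with adjusted p of 0.333 and 0.759.

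Transcripts that host microRNAs were called in both directions. Of 27 listed genes, 21 were tested, Dgcr8 among them, and 2 fell, 1 rose and 18 did not pass, where 2.8% of all genes tested were called lower and 2.03% higher. The median log2 fold change was 0.22, but −0.06 with scaling by library size and −0.05 with the trend with exon length and GC content removed. Mcm7, a subunit of the replicative helicase whose gene holds the miR-106b cluster (chromosome 5, 138164583 to 138172422), stood at 85.9, 88.4 and 76.3 CPM in the knockouts and 172, 177 and 135 CPM in the controls. It fell by 0.95 on the log2 scale, with an edgeR adjusted p of 0.0176. Huwe1, a ubiquitin ligase gene that holds let-7f-2 and miR-98 (chromosome X, 151800807 to 151935417), fell to 95.1, 93.3 and 82.1 CPM in the knockouts, against 171, 153 and 144 CPM in the controls (log2 fold change −0.79, edgeR adjusted p 0.0222). Both genes had groups far apart compared with the spread within them.

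Mest, an imprinted gene that holds miR-335 (chromosome 6, 30723547 to 30748465), rose to 79.6, 84.0 and 96.7 CPM in the knockouts, against 19.9, 22.9 and 41.6 CPM in the controls. Its log2 fold change was 1.62 ± 0.26 (SE), with an edgeR adjusted p of 0.0144, and its exons share 912 bases with Copg2 on the other strand. Mir17hg, the transcript of the miR-17 cluster (chromosome 14, 115042879 to 115046727), had 41, 29 and 53 reads in the knockouts and 59, 70 and 183 in the controls. Control 3 was the highest by far, and the log2 fold change of −1.23 did not pass (edgeR adjusted p 0.128). Copz2 (1.24), Smc4 (−0.48) and Meg3 (0.66) were the next by p and did not pass, with adjusted p of 0.0524 to 0.183. No called host stayed called by edgeR with the knockout pair as 1 library, without control 2, or without knockout 1, 2 or 3. Of all genes, edgeR called 1 in the first setting, 182 in the second and 5, 10 and 3 without knockout 1, 2 and 3. With that pair as 1 library DESeq2 and limma-voom called 3 hosts each, and 469 and 505 of all 15406 genes tested.

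Some of the mature microRNAs inside the called hosts and Mir17hg are shown: those of a called host whose seed recurs in these hosts, those of Mir17hg with the same seeds, and miR-335-5p from Mest, whose seed does not recur. They are RefSeq sequences on GRCm38.p6, 5′ to 3′, with bases 2 to 8 in capitals.
mmu-miR-106b-5p: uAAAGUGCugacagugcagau
mmu-miR-93-5p: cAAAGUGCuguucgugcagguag
mmu-miR-17-5p: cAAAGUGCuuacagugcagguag
mmu-miR-20a-5p: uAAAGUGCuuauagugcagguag
mmu-miR-25-3p: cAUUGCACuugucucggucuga
mmu-miR-92a-3p: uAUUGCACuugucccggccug
mmu-let-7f-5p: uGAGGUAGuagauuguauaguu
mmu-miR-98-5p: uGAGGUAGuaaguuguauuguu
mmu-miR-335-5p: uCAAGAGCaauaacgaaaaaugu
MiR-106b-5p, miR-93-5p and miR-25-3p lie in Mcm7, and miR-17-5p, miR-20a-5p and miR-92a-3p in Mir17hg, so that Mcm7 and Mir17hg share the seeds AAAGUGC and AUUGCAC. Huwe1 carries the let-7 seed GAGGUAG in both let-7f-5p and miR-98-5p. The level of a host mRNA is not a measure of the mature microRNA, which DROSHA and DICER1 cut from it.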

How the data were processed

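Values are whole-number read counts for each Ensembl gene in 6 libraries, deposited by the authors without normalization. The submitters' processing notes list mm10 as the build and name STAR 2.7.5c, Trimmomatic 0.39, StringTie 2.1.7, edgeR and DESeq2 without their roles. The counter, its strand setting and the row filter were not given in the sources used here. Per the labels' protocols, cDNA was primed with anchored oligo-dT and amplified by PCR, so reads are not independent molecules and copies of a molecule can be counted more than once. The deposited sum and mean columns were not used.

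EdgeR 4.0.16 (R 4.3.3) fitted the counts with its quasi-likelihood F test (robust, TMM scaling, filterByExpr, genotype as the sole term, 14766 genes tested) with Benjamini-Hochberg adjustment over all of these; genes under 0.05 were called. The SE divides the log2 fold change by the square root of F. Levels between genes are CPM per kilobase of annotated exon (GENCODE M21, GRCm38; 22562 of 22579 identifiers matched). The main edgeR fit alone was tried on simulated counts with known folds. The simulated libraries were independent, so this does not cover near-identical libraries or the other fits. Every p is two-sided. Libraries are not tied to animals by the labels, so a p measures only how these samples vary, which could be technical spread. Replicate numbers are shared between the groups. Deviations from the group means had r of 0.00758, 0.0134 and 0.0277 between same-numbered libraries. Because knockout 1 and 2 are near-identical, their deviations are too, so these values cannot decide whether the libraries were paired.

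The members, the 5 gene lists and the 7 marker lists were chosen with earlier results of these data known. Named are all members, every called gene of a list and up to 4 others with the smallest p, and the 3 genes most like a called member, of which 1 is not reported here; the markers Amh, Dazl, Zbtb16, Kit, Gfra1, Cldn11, Acta2, Actg2, Cd3g and Lck were added after their values were seen. Alternatives were other scalings and filters, the replicate block, each library left out, and mitochondrially encoded genes left out. Others were knockout 1 and 2 as 1 library (their rounded mean), DESeq2 1.42.0, and a lowess trend with exon length and GC content removed (span 0.3). Limma-voom (limma 3.58.1) was also run, in every setting with sample quality weights. The pair as 1 library with DESeq2 or limma-voom was added after seeing the data.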

Additional observations from a re-analysis of the deposited data

How the results depend on the processing

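Of 713 genes called in all (300 higher, 413 lower), the count was 1378 (226 higher, 1152 lower) with scaling by library size and 1265 (234 higher, 1031 lower) with the trend with length and GC content removed; with them the median over all genes, 0.01 otherwise, was −0.26 and −0.15 on the log2 scale. It was 1641 by DESeq2, 2882 by limma-voom, 1 with knockout 1 and 2 as 1 library (469 by DESeq2 in that setting), and 3 to 839 when 1 library was left out, with 5, 10 and 3 without knockout 1, 2 and 3 and 182 without control 2. Of the 10 members 1 was called; 4 were with library size scaling (Drosha, Ago1, Tnrc6a and Tnrc6b), 3 by DESeq2, 4 by limma-voom, 0 by edgeR with knockout 1 and 2 as 1 library, and 0 to 4 when 1 library was left out, 0 without any of the knockouts and 4 without control 3. With the replicate block the counts were 683 and 1, and the block ended no call of a member. The cause of these changes was not tested. Drosha was called in 14 of 18 alternatives, with log2 fold changes from −1.10 to −0.77.

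Of the members, named list genes and markers run under these alternatives, Ago2, Dgcr8 and Piwil4 changed sign. Ago2 had log2 fold changes of 0.044 by limma-voom, 0.008 with the length and GC trend removed and 0.155 by limma-voom with the pair as 1 library, and −0.216 to 0.218 when 1 library was left out. Dgcr8 had 0.413 by limma-voom and −0.475 to 0.364 when 1 library was left out, positive without knockout 3, control 1 (0.187) or control 2 (0.040). Piwil4 had 0.005 by limma-voom with the pair as 1 library and −0.249 to 0.035 when 1 library was left out. Calls among processing partners, effectors and hosts (2, 6 and 3) were 8, 12 and 8 by limma-voom, 4, 9 and 4 with library size scaling, and 0 to 3, 0 to 6 and 0 to 4 when 1 library was left out. Partners had 4 by DESeq2. Settings with the pair as 1 library in DESeq2 or limma-voom were chosen after seeing the data. Low depth limits Dgcr8 and Ago4, with at most 39 and 62 reads in a library.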
